A study of Mus musculus with 77 samples.

Results

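Part of the microarray consists of probes for chromosomal intervals, from which long noncoding RNAs may be transcribed, and for some named transcripts of this kind. Of the 55681 non-control probes, 16251 were chosen because their name belongs to the series of interval probes or because their annotation is a chromosomal interval, and the remaining 39430 probes served for comparison. The rule of choice used no measured value, but it was set with earlier results of these data known. An interval of the mm9 build was given for 16194 of them, in 4610 distinct entries and with a strand for all but 13, and the other 57 carried 1 of 12 names in place of coordinates (TUG1, lincP21, PINC, KCNQ1ot1, HOTAIR, NRON, NEAT1, NEAT2, TSIX, XIST, H19 and BRN1-A).

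The retinas came from 77 C57BL/6 mice of a model of oxygen-induced retinopathy (OIR). In this model, pups kept in high oxygen lose central retinal vessels, and after the return to room air the relatively hypoxic retina forms abnormal new vessels that later regress. Pups of the OIR group were kept with their dams in 75% oxygen from P7 to P12 and then in room air (13 mice at each of P12, P17 and P28), and control pups stayed in 21% oxygen (12 mice at P12, 12 at P17 and 14 at P28). These groups are called hyperoxia and normoxia below. No genetic change was made and no drug was given as a treatment, while the mice of both groups were anesthetized by injection before tissue collection. Both retinas of a mouse were pooled and hybridized in 1 color on 1 array against universal mouse reference RNA in the other. The labels state that a whole litter received either hyperoxia or normoxia but do not give the litter or the sex of a mouse. Neither was taken into account, although detection of XIST, given below, split most of the mice.

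Long noncoding RNAs are long transcripts without a protein product. Some of them build nuclear bodies or silence chromatin, many are found only in particular tissues and stages of development, and most are less abundant than messenger RNAs. In the retina, TUG1 was first described as a transcript induced by taurine that is needed for photoreceptor formation, and NEAT1 and NEAT2 (the latter an older name of Malat1) reside in paraspeckles and nuclear speckles, respectively.

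All values are log2 ratios of retina to reference. By the labels, the retina was in the Cy5 channel, but the 11 rod genes of the marker list were brighter in Cy3 on all 77 arrays, with log2 Cy3 over Cy5 of at least 2.81, and the deposited value table also equals Cy3 over Cy5. The retina was therefore taken as Cy3, and the sign is opposite to the one the labels would give. In the whole retina, fewer cells of a type and less RNA per cell cannot be told apart.

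The arrays lay on 11 slides that were scanned on 4 days. The retina channel was brighter on the last of these days, which held 9 of 14 normoxia and 11 of 13 hyperoxia arrays of P28, against 3 and 2 of P12 and 5 and 2 of P17. Over the interval probes, the median correlation of an array with the others of its group ranged from 0.660 to 0.970, no pair of arrays was identical, and no interval probe was saturated in either channel.

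The probed intervals were between 62 and 7128487 bases long (median 10676), each with a median of 3 probes (1 to 10). Both strands of the same coordinates were probed for 1067 of 3540 coordinate pairs. Intervals were spread over all autosomes and the X chromosome, from 322 probes on chromosome 19 to 1199 on chromosome 1, with 577 on X and 0 on Y.

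The first question was which intervals gave a signal in the retina at all. A probe was called detected on an array when the scanner software flagged its retina channel as well above background. Only 1074 interval probes (6.61%) were detected on all arrays, against 28.1% of the other probes, and 5210 (32.1%) were detected on none, against 18.7% of the others. On 39 or more of the 77 arrays 19.9% of the interval probes were detected, close to the 20.5% of 1184 probes of RefSeq long noncoding RNAs, whereas the share was 55.3% for 26564 probes of protein-coding genes. In 732 intervals at least 1 probe was detected on all arrays, and in 440 none of the probes was detected on any array.

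In many intervals only 1 strand had a probe detected on 39 or more arrays. Of the 1067 coordinate pairs with probes on both strands, 258 had probes detected on 39 or more arrays on both strands, 427 on 1 strand and 382 on neither, and in 33 of the 427 the other strand was not detected on any array. The share of probes detected on 39 or more arrays differed little with the length of the interval, from 19.3% for the shortest to 20.3% for the longest of 4 equal classes. Between chromosomes it ranged from 12.8% on chromosome 9 to 26.9% on chromosome 17.

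Several intervals were read far more strongly in the retina than in the reference. Among the probes detected on 39 or more arrays, the highest mean log2 ratios were 4.49 and 3.91 (A_30_P01025044 and A_30_P01031958, both in chr19:19005109-19008657, reverse strand), 4.42 (A_30_P01029366, chr14:65205076-65219432, reverse), 4.06 (A_30_P01030563, chr6:30127175-30128051, forward) and 3.33 (A_30_P01031296, chr17:34003823-34011015, forward). The lowest were -3.25 and -2.97 (A_30_P01033455 and A_30_P01025992, chr6:83541250-83560425, forward), -3.08 and -2.95 (A_30_P01018177 and A_30_P01018861, chr2:152172745-152184745, reverse) and -2.90 (A_30_P01026835, chr14:55433382-55452757, reverse). At both ends of the range, probes of the same interval stood next to each other. The 10 brightest interval probes had mean log2 retina signals from 15.99 (A_30_P01020476, chrX:18744367-18853992, forward) to 17.98 (A_30_P01031754, chr19:5801802-5802597, reverse), and 3 of them lay in chr17:17481706-17482457 (reverse). Brightness also depends on the base sequence of a probe, so this is not an order of abundance.

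Of the 12 transcripts given by name, TUG1 (5 probes), NEAT1 (5) and NEAT2 (3) had every probe detected on 39 or more arrays. HOTAIR, a transcript of the HoxC cluster, TSIX, the antisense partner of XIST, and lincP21, a p53 target, had none of 5 probes each at that level. NRON, which restrains the transcription factor NFAT, KCNQ1ot1, an imprinted antisense transcript, and PINC, described in the mammary gland, had 1 of 5 each. H19, an imprinted fetal transcript, had 2 of 5, XIST 3 of 5 and BRN1-A 3 of 4.

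The XIST probes had the largest spread between mice of one group of all interval probes. XIST coats the inactive X chromosome of female cells. All 5 XIST probes were detected in 5 of 12 normoxia and 8 of 13 hyperoxia mice on P12, in 6 of 12 and 4 of 13 on P17, and in 7 of 14 and 8 of 13 on P28. No XIST probe at all was detected in 6, 5, 6, 9, 6 and 4 mice, in the same order, so that only 3 of the 77 mice lay between. The labels do not give the sex of a mouse, the number of XIST-positive mice differed between the groups, and its part in the other results was not tested. On P17 the 5 XIST probes had differences from -0.77 to -0.44 between hyperoxia and normoxia, and none passed the threshold.

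**Figure D1:**
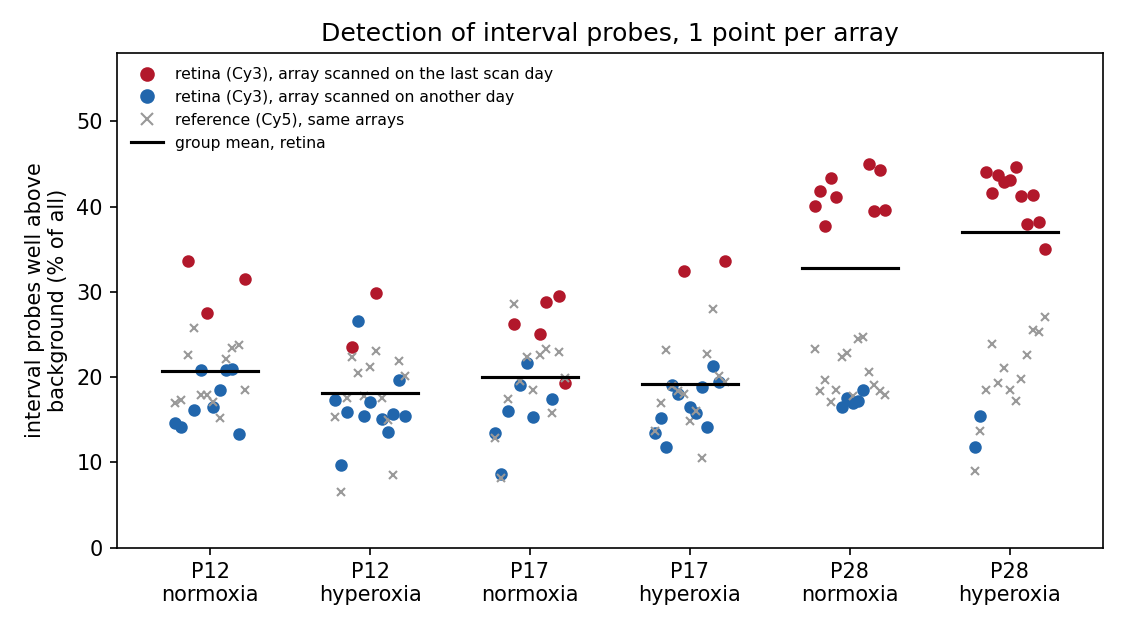
Percent of the 16251 interval probes flagged as well above background on each array (y axis, 1 circle per array, red for the last scan day and blue for the others, crosses for the reference channel of the same arrays, line at the group mean of the retina channel) in the 6 groups (x axis). Only arrays of the last scan day lay above 30%, and on P28 these arrays lay between 35.0 and 44.9% while the other P28 arrays lay between 11.8 and 18.4%.

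The share of detected intervals was compared between the groups. On P12 20.7% ± 6.78 (SD, n = 12) of the interval probes were detected in normoxia and 18.1% ± 5.53 (n = 13) in hyperoxia. On P17 the shares were 20.04% ± 6.42 (n = 12) and 19.2% ± 6.70 (n = 13), and on P28 32.8% ± 12.1 (n = 14) and 36.99% ± 10.8 (n = 13). The differences between hyperoxia and normoxia were -2.63, -0.847 and 4.21 percentage points, smaller than the SD of either group, with adjusted p = 0.718, 0.917 and 0.718 (permutation test, two-sided, adjusted over 10 comparisons).

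In normoxia mice, detection was 12.7 percentage points higher on P28 than on P17 (permutation test, two-sided, adjusted p = 0.0441), and 0.672 points lower on P17 than on P12 (adjusted p = 0.917). On the last scan day the mean share was 41.4% in 9 normoxia arrays of P28 and 25.8% in 5 of P17. On the scan day before it, the shares were 17.3% in 5 arrays of P28 and 18.7% in 3 of P17. The mean difference was 7.57 points within slides (19 arrays of 6 slides, permutation test, adjusted p = 0.112) and 7.12 points within scan days (adjusted p = 0.0106). The difference in share between interval and other probes was 0.765 points higher on P28 than on P17 (permutation test, adjusted p = 0.718). In the reference channel the group means stayed between 17.5 and 20.3%.

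Hyperoxia against normoxia was compared on each day with the moderated statistic of limma over all 55681 probes, and a probe was called at a Benjamini-Hochberg adjusted p under 0.05. On P12, at the end of the hyperoxia, no interval probe was called, while 13 probes of the whole array (0.0233%) were. On P12, 499 interval probes (3.07%) had an unadjusted p under 0.05, against 3.11% of protein-coding and 3.89% of RefSeq long noncoding RNA probes. The NEAT1, NEAT2 and TUG1 probes, for example, had P12 differences from -0.034 to 0.17. No interval probe was called under 10 of the other 11 settings tried, and 1 was called in the deposited value table.

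On P17, 5 days after the return to room air, 29 interval probes in 21 intervals or names differed. With slide as a block 33 were called, 19 of them among the 29, and in 1 model of all groups 35 were, 15 of them among the 29. NEAT1 and NEAT2 were higher in hyperoxia, as was an interval on chromosome 19, while an interval on chromosome 3 was lower. The sizes were modest, from a rise of 0.68 to a fall of 0.67 on the log2 scale. Of the interval probes 18 were higher and 11 lower, against 0.803 and 0.33% of all probes. Of the interval probes detected on a share of at least 0.5 of the arrays of either group, 0.861% were called (27 of 3136), compared with 1.69% of RefSeq long noncoding RNA probes and 3.66% of protein-coding probes chosen in the same way. Of all interval probes 0.178% were called.

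**Figure D2:**
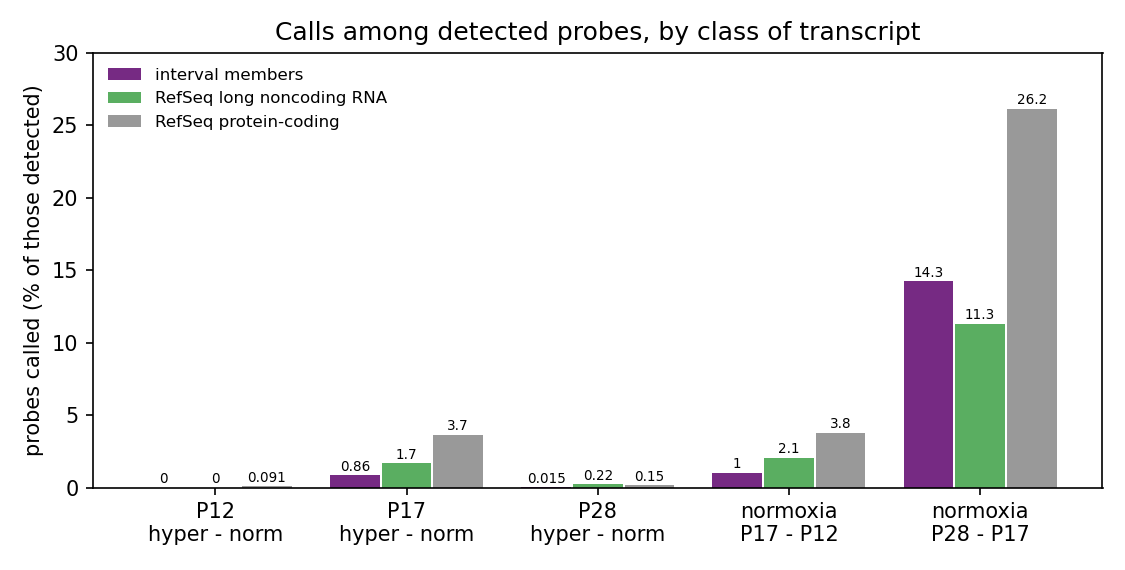
Percent of the probes detected on a share of at least 0.5 of the arrays of a group compared that were called by limma at an adjusted p under 0.05 (y axis, from 0) in 5 comparisons (x axis) for interval probes (purple), RefSeq long noncoding RNA probes (green) and RefSeq protein-coding probes (gray). The share was lower in interval than in protein-coding probes in each of the 5 comparisons, at 0.861 against 3.66% on P17 and 14.3 against 26.2% from P17 to P28 in normoxia. Few calls lay behind it for hyperoxia against normoxia on P12 (0 of 3129 against 13 of 14300) and P28 (1 of 6460 against 30 of 19523). The offset added to the signals compresses differences of dim probes.

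NEAT1, the scaffold of paraspeckles, rose on P17. Its probe A_30_P01021631 had a lowest, median and highest log2 ratio of -2.86, -2.54 and -1.76 in normoxia and of -2.30, -1.74 and -1.43 in hyperoxia. All 13 hyperoxia mice were above the normoxia median and 7 of them above the highest normoxia mouse. The difference was 0.68 ± 0.11 (SE; limma, adjusted p = 0.00104). Probes A_30_P01025798 (0.61 ± 0.14), A_30_P01020135 (0.60 ± 0.14) and A_30_P01029720 (0.58 ± 0.13) rose too (limma, adjusted p = 0.0249, 0.03 and 0.0184), and A_30_P01023251, with 0.36, did not pass the threshold (adjusted p = 0.499). A probe of the RefSeq transcript of Neat1 that is not an interval probe, A_51_P234692, gave 0.77 ± 0.12 (adjusted p = 0.000469).

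NEAT2 (Malat1), a transcript of nuclear speckles, rose by less. For A_30_P01020325 the normoxia values were -1.16, -0.71 and -0.46 (lowest, median, highest) and the hyperoxia values -0.62, -0.31 and 0.12. Again all 13 hyperoxia mice exceeded the normoxia median, and 7 exceeded every normoxia mouse. The difference was 0.45 ± 0.09 (limma, adjusted p = 0.011), and 0.49 ± 0.10 for A_30_P01031072 (adjusted p = 0.0125, and 0.109 with slide as a block). The last NEAT2 probe, A_30_P01019221, had 0.34 (adjusted p = 0.296), and the RefSeq probe of Malat1, A_55_P2021187, 0.42 ± 0.12 (adjusted p = 0.0942).

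No probe or interval sequence was used here, as the files hold none. Of the 3 Malat1 probes given by the name NEAT2, 2 were called on P17. All 5 probes given by the name TUG1 were called between P17 and P28 in normoxia. Probes given by coordinates were not assigned to genes here. For Malat1 and Tug1 the RefSeq promoter is shown from 250 bases before to 50 bases after the transcript start. It is read 5′ to 3′ on the strand of the gene (GRCm38.p6, with Malat1 at chr19:5802623-5802922 and Tug1 at chr11:3648765-3649064, both on the minus strand). Neat1 and H19 had no entry.
Malat1: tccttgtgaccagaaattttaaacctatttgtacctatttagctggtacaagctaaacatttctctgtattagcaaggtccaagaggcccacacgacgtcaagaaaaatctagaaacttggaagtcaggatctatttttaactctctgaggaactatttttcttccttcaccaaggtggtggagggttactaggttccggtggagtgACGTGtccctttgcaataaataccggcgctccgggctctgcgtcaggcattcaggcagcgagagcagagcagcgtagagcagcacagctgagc
Tug1: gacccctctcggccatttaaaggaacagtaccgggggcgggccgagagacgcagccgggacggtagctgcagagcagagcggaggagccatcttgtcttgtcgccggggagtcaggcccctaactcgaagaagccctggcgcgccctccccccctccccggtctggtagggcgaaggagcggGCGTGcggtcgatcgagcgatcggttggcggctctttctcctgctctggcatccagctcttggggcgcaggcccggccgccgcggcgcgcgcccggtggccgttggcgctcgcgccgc
The capitals mark the core of the hypoxia response element (ACGTG or GCGTG on either strand, where ACGTG may also be part of the E-box CACGTG). A match of these letters is not evidence of binding. Each promoter held 1 match, and 43.8% of all 32851 promoters of this length (14380) held at least 1.

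**Figure D3:**
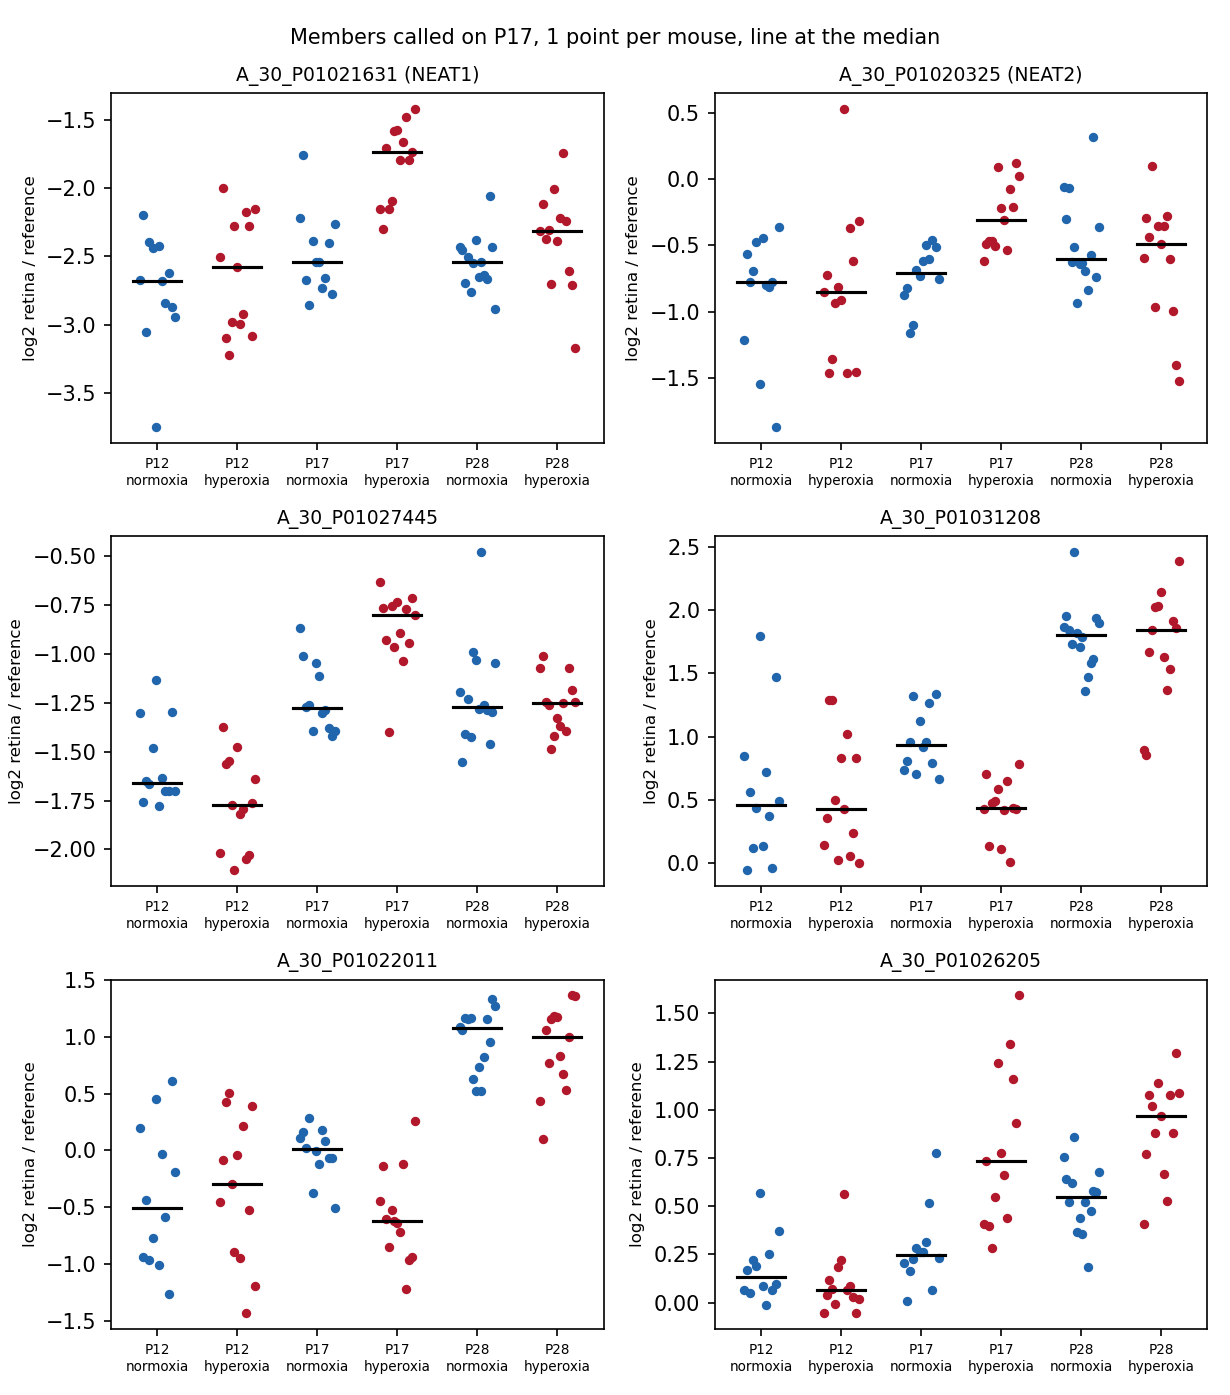
Log2 ratio of retina to reference (y axes) of 6 interval probes in every mouse (1 point per mouse, blue for normoxia, red for hyperoxia, line at the median) in the 6 groups (x axes). On P17 the hyperoxia median lay above the normoxia median for NEAT1, NEAT2, A_30_P01027445 and A_30_P01026205 and below it for A_30_P01031208 and A_30_P01022011.

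Other intervals rose on P17 as well. In chr19:56820850-56837925 (reverse strand, 17076 bases) both probes were called: A_30_P01022125 had -1.93, -1.19 and -0.89 in normoxia and -1.42, -0.69 and -0.49 in hyperoxia, with 10 of 13 hyperoxia mice above the highest normoxia mouse. Its difference was 0.48 ± 0.11 (limma, adjusted p = 0.0244), and that of A_30_P01027445 was 0.36 ± 0.07 (adjusted p = 0.00973). The 2 probes on the other strand of this region had differences of 0.14 and 0.22 and were not called.

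The only probe of chr17:48068261-48087905 (forward), A_30_P01021243, was among the 10 brightest interval probes. It had -1.21, -0.79 and -0.70 in normoxia and -0.89, -0.32 and 0.05 in hyperoxia, where 10 of 13 mice were above the highest normoxia mouse. The difference was 0.47 ± 0.09 (limma, adjusted p = 0.00765). The 3 probes of the other strand had differences between -0.029 and 0.018.

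A_30_P01033039 in chr2:128211990-128215223 (reverse) was a dim probe, detected in 4 of 12 normoxia and 12 of 13 hyperoxia mice on P17. Its values were -1.55, -0.81 and -0.25 in normoxia and -0.44, -0.26 and -0.02 in hyperoxia, a difference of 0.63 ± 0.12 (limma, adjusted p = 0.0026). The size depends on the offset used for dim spots, and was 2.54 in the deposited value table. The other 2 probes of the interval had differences of at least 0.063 and were not called.

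A_30_P01026205, the only probe of chr12:16833551-16901804 (forward), had 0.01, 0.25 and 0.78 in normoxia and 0.28, 0.74 and 1.59 in hyperoxia, with all 13 hyperoxia mice above the normoxia median (0.53 ± 0.13; limma, adjusted p = 0.0365). On P28 its difference was 0.37 (adjusted p = 0.106).

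The clearest fall on P17 was in chr3:146629425-146649125 (forward, 19701 bases) and in the interval nested in it, chr3:146645022-146646977. Probe A_30_P01031208 had 0.67, 0.93 and 1.34 in normoxia and 0.01, 0.44 and 0.79 in hyperoxia. In 11 of 13 hyperoxia mice it was below the lowest normoxia mouse, and the difference was -0.53 ± 0.09 (limma, adjusted p = 0.0016). The second called probe of the longer interval, A_30_P01033124, had -0.67 ± 0.14 (adjusted p = 0.00842), and the 3 probes of the nested interval, A_30_P01031414, A_30_P01031735 and A_30_P01033574, had -0.60, -0.55 and -0.48 and were all called. Another probe of the longer interval, A_30_P01028040, had -0.27 (adjusted p = 0.277). The 5 probes of the opposite strand had differences between -0.026 and 0.018, and none of them was detected on 39 or more arrays. The 2 intervals overlap, so their probes are not independent of each other.

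In chr2:156213798-156216885 (reverse, 3088 bases), A_30_P01022011 had -0.50, 0.01 and 0.28 in normoxia and -1.22, -0.62 and 0.26 in hyperoxia, with 9 of 13 hyperoxia mice below the lowest normoxia mouse. It fell by 0.56 ± 0.13 (limma, adjusted p = 0.0249). The other 2 probes, A_30_P01026195 and A_30_P01019211, had -0.57 and -0.47 and did not pass (adjusted p = 0.0566 and 0.0992). In chr8:40238025-40264250 (forward), A_30_P01022214 fell by 0.40 ± 0.10 (adjusted p = 0.044, and 0.112 with slide as a block).

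The remaining calls of P17 were smaller. The largest of the rises was 0.35 (A_30_P01020534, chr6:47595238-47601893, reverse), and the smallest 0.073 (A_30_P01030773, chr2:65240793-65292293, forward). Of the falls, A_30_P01017843 (chr2:94082835-94101939, reverse) had -0.17, A_30_P01018844 (chr14:78214602-78225827, reverse) -0.16, A_30_P01032678 (chr14:44292637-44293014, forward) -0.13 and A_30_P01030715 (chr2:52241435-52245307, forward) -0.072. In 2 overlapping intervals of chromosome 8 (chr8:72663625-72673010 and chr8:72671462-72672533, forward) all 11 probes were above 0, from 0.034 to 0.25, and 2 of them were called. Further forward probes overlap the longer interval. With those of the shorter interval they make 5 probes, all above 0 and up to 0.35, of which 1 was called. Of the 29 called probes 2 were not detected on any array. Of the 5 intervals or names with more than 1 called probe, each had all its calls in one direction. Among the arrays of the last scan day alone, 7 in all, no interval probe was called by limma, and among those of the other scan days 19 were, of which 8 were among the 29.

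The P17 differences were not called on the other days. Of the 18 probes higher on P17, 9 were also above 0 on P12 and 6 on P28, with median differences of 0.0025 and -0.025. Of the 11 lower probes, 6 were below 0 on P12 and 8 on P28, with medians of -0.0018 and -0.035. None of the 29 was called on P12 or on P28, which by itself does not show that the effect differed between the days.

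**Figure D4:**
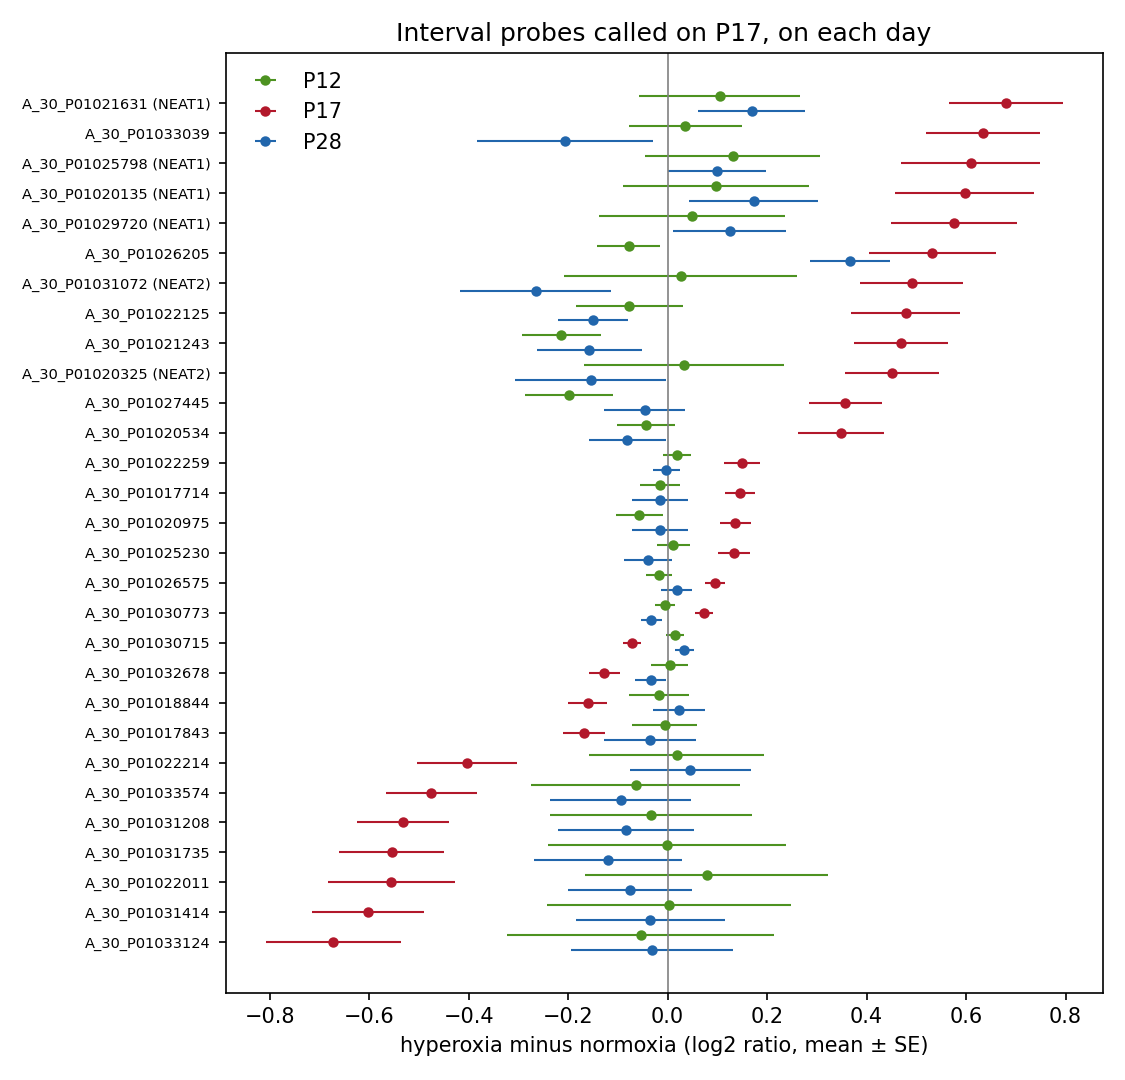
Difference of hyperoxia and normoxia (x axis, log2 ratio, mean ± SE) on P12 (green), P17 (red) and P28 (blue) for the 29 interval probes called on P17 (y axis, ordered by the P17 difference). The P17 differences ran from -0.67 to 0.68, while those of P12 ran from -0.21 to 0.13 and those of P28 from -0.27 to 0.37.

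The change of the oxygen effect between days was tested itself, in one limma model of the 6 groups. On P17, 10 interval probes had a higher effect than on P12 and 0 a lower one, together 0.0615% of the interval probes. Over the whole array 0.436% of the probes had a higher and 0.0431% a lower effect. On P28, 3 interval probes had a higher and 7 a lower effect than on P17, again together 0.0615%. Over the whole array these shares were 0.0341 and 0.244%. Both contrasts share the P17 mice. A_30_P01021243 of chromosome 17 was among them in both, with effects of -0.21 on P12, 0.47 on P17 and -0.16 on P28. A_30_P01022125 of chromosome 19 had -0.077, 0.48 and -0.15. NEAT1 was not called in either of these contrasts.

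Markers of other cells moved with hyperoxia on P17. The level of the list of 9 endothelial genes, 1 log2 value per mouse, was between -0.10 and 0.25 in the 12 normoxia mice. In the 13 hyperoxia mice it was between 0.36 and 0.84. Of the 9 genes 3 were called, all higher (Egfl7 1.09, Esm1 1.56 and Cd34 1.33). Tek was not detected on any P17 array. On P12, 2 of the endothelial genes were lower in hyperoxia (Egfl7 -0.86 and Cd34 -0.81). Of 7 microglia and macrophage genes 2 were higher (Aif1 0.33 and Csf1r 0.51), with a list level from -1.05 to -0.097 in normoxia and from -0.59 to -0.044 in hyperoxia. Of 11 amacrine and ganglion cell genes 2 were lower (Slc6a9 -0.36 and Nefl -0.77), of 7 pigment epithelium genes 1 was lower (Rpe65 -0.81, with Best1 on no array), of 8 lens genes 1 was lower (Bfsp2 -0.31, with Lim2 on no P17 array) and of 5 red blood cell genes 1 was higher (Hba-a1 1.38). No gene of the rod, cone, bipolar, Mueller glia or dividing cell lists was called. The part of these cells in the differences of the interval probes was not tested.

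Of 76 long noncoding RNA genes listed by symbol, 39 were measured by probes outside the interval set. Of these, Neat1 was the only one called on P17, and the median difference of the list was 0.012 against 0.000965 over all probes. None of the 39 was called on P12 or P28, whereas 1 of all 1184 RefSeq long noncoding RNA probes was called on P28, higher in hyperoxia.

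On P28, when most of the new vessels have regressed in this model, 1 interval probe was called, against 34 probes (0.0611%) of the whole array. It was A_30_P01018822 in chr13:23517278-23523756 (forward), a dim probe detected on 28 of the 77 arrays. It had -0.17, -0.04 and 0.14 in normoxia and 0.02, 0.11 and 0.16 in hyperoxia, so that the groups overlapped, and the difference was 0.13 ± 0.03 (limma, adjusted p = 0.043, and 0.208 with slide as a block). Slides held both groups in 3 of 9 cases on P28, compared with 7 of 9 on P12 and 6 of 10 on P17.

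Changes with age were examined in normoxia mice. From P12 to P17, 22 interval probes rose and 19 fell, against 0.623 and 0.659% of all probes. The 41 probes lay in 29 intervals, and in each of the 9 intervals with more than 1 called probe all calls had one direction. Of the interval probes detected in either group 1.04% were called, and 3.802% of the protein-coding ones.

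All 3 probes of the short interval chr6:31078802-31079644 (reverse, 843 bases) rose. A_30_P01029853 had -1.21, -0.42 and 0.23 on P12 and -0.32, 0.38 and 1.86 on P17, so that the days overlapped, and the rise was 0.94 ± 0.19 (limma, adjusted p = 0.00114). The other probes, A_30_P01019423 and A_30_P01033174, rose by 0.65 and 0.51. In chr8:67552315-67561235 (reverse), A_30_P01031408 rose by 0.53 ± 0.08 (adjusted p = 2.36e-06) and was detected in 5 of 12 mice on P12 and in all 12 on P17, and in chr8:48476637-48492537 (forward) A_30_P01032305 rose by 0.47.

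The largest fall from P12 to P17 was in chr8:74820025-74833350 (forward). A_30_P01031572 had 0.26, 1.59 and 1.93 on P12 (lowest, median, highest) and -0.61, 0.63 and 1.05 on P17. Its P28 values were lower still, with -0.44, -0.12 and 0.28. It fell by 0.87 ± 0.14 from P12 to P17 (limma, adjusted p = 3.76e-05), and by 0.96 in hyperoxia mice. A_30_P01027755 of the same interval fell by 0.62. A pair of probes in chr15:77164450-77201325 (forward), A_30_P01026240 and A_30_P01019660, fell by 0.62 and 0.58, and A_30_P01025948 in chr8:72663591-72671154 (forward) by 0.52. The last of these intervals overlaps the longer chromosome 8 interval named above for P17.

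**Figure D5:**
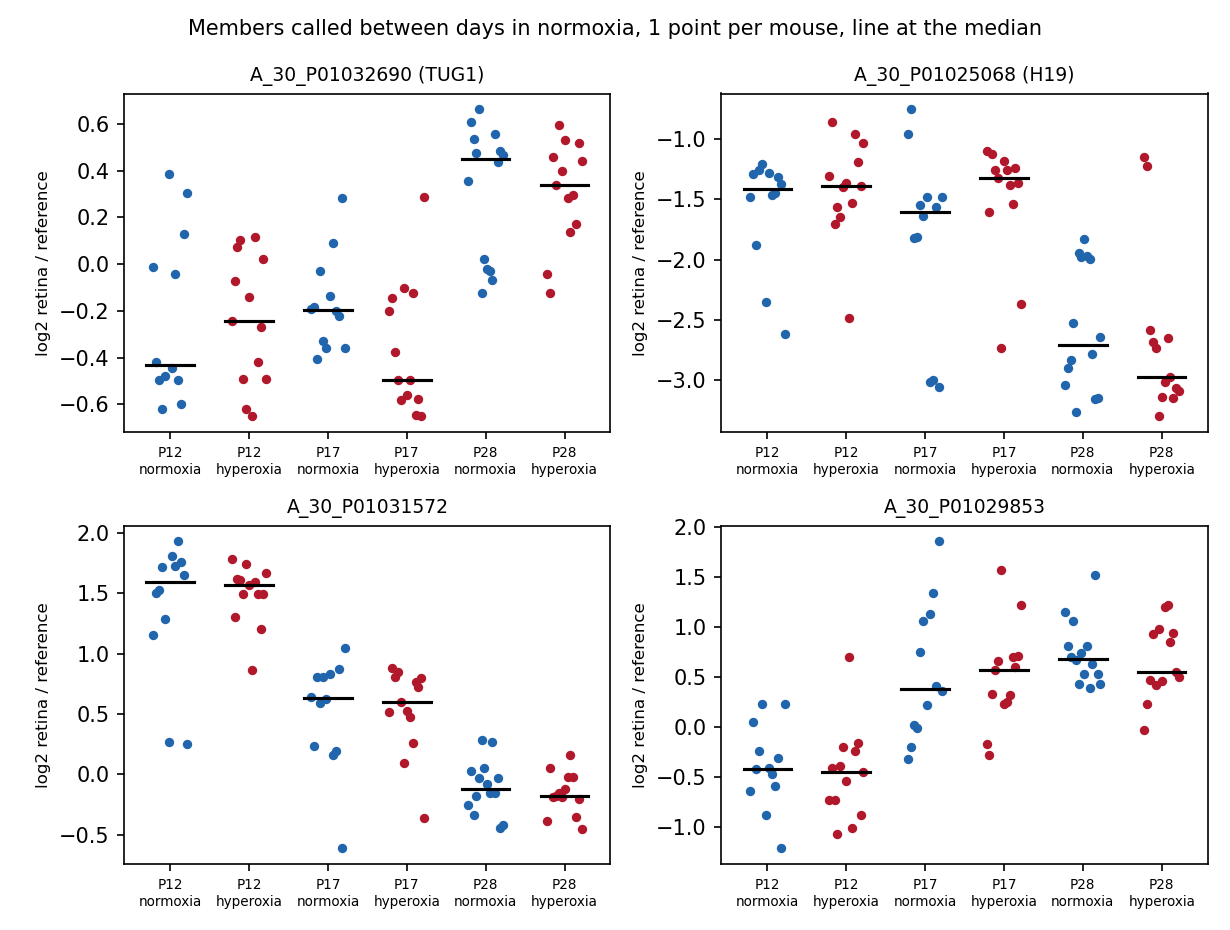
Log2 ratio of retina to reference (y axes) of 4 interval probes in every mouse (1 point per mouse, blue for normoxia, red for hyperoxia, line at the median) in the 6 groups (x axes). In normoxia the median of the TUG1 probe was -0.20 on P17 and 0.45 on P28, that of the H19 probe -1.60 and -2.71, A_30_P01031572 fell from 1.59 on P12 to -0.12 on P28, and A_30_P01029853 went from -0.42 on P12 to 0.38 on P17.

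From P17 to P28 many more intervals differed. In normoxia 495 interval probes rose and 541 fell, against 7.97 and 5.38% of all probes. The 1036 probes lay in 751 intervals or names, and the median change was 0.16 among those that rose and -0.29 among those that fell. Unlike in the step before, the calls of an interval did not always share a direction. They did in 172 of the 187 intervals or names with more than 1 called probe. Of the interval probes detected in either group 14.3% were called, between the 11.3% of RefSeq long noncoding RNA probes and the 26.2% of protein-coding probes. A probe could enter this set through the P28 arrays alone, on which detection was higher. The set held 6161 interval probes, against 3267 in the step from P12 to P17. Without this choice, 6.37% of all interval, 4.98% of all RefSeq long noncoding RNA and 19.4% of all protein-coding probes were called. Of the 1036 called probes 59 were not detected on any array. Within the arrays of the last scan day 759 interval probes were called, 503 of them among the 1036, and within those of the other scan days 147 were called, 90 of them among the 1036.

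TUG1 rose with all of its probes. A_30_P01032690 had -0.40, -0.20 and 0.28 on P17 and -0.12, 0.45 and 0.66 on P28 in normoxia, and the days overlapped. Its rise was 0.48 ± 0.11 (limma, adjusted p = 0.000946), and those of A_30_P01033104, A_30_P01022467, A_30_P01020952 and A_30_P01017489 were 0.48, 0.39, 0.32 and 0.20 (adjusted p = 0.00514, 0.0115, 0.00128 and 0.00589). With slide as a block the 5 rises were between 0.18 and 0.45, and all were still called. The ratio also moved with the scan day. Of the P28 arrays, the 5 of the other scan days had -0.12 to 0.02 for A_30_P01032690 and the 9 of the last scan day 0.35 to 0.66, while on P17 the ranges were -0.40 to -0.14 (7 arrays) and -0.36 to 0.28 (5 arrays). With scan day as a block its rise was 0.44, and the 5 rises were between 0.18 and 0.44 and all called. Among the arrays of the last scan day alone they were between 0.24 and 0.55, and all but that of A_30_P01017489 (adjusted p = 0.0537) were called, whereas among those of the other scan days they were between 0.11 and 0.22 and none was called (lowest adjusted p = 0.252). The probes share 1 transcript and are not independent.

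Of the 5 H19 probes, the 2 that were detected on 39 or more arrays fell from P17 to P28, A_30_P01021588 by 1.02 ± 0.29 and A_30_P01025068 by 0.73 ± 0.22 (limma, adjusted p = 0.00983 and 0.0199), and by 0.59 and 0.51 with slide as a block (adjusted p = 0.000659 and 0.000517). A_30_P01025068 had -3.05, -1.60 and -0.75 on P17 and -3.26, -2.71 and -1.83 on P28, with an overlap of the days. The 5 P28 arrays of the other scan days had -2.00 to -1.83 and the 9 of the last scan day -3.26 to -2.53, while P17 arrays had -1.82 to -0.75 (7 arrays) and -3.05 to -1.48 (5 arrays). Both falls were smaller with scan day as a block, 0.60 and 0.43 (adjusted p = 0.00122 and 0.00785). Within the last scan day A_30_P01021588 had -0.90 (adjusted p = 0.00521) and A_30_P01025068 -0.45 (adjusted p = 0.198), and within the other scan days -0.48 (adjusted p = 0.213) and -0.55 (adjusted p = 0.0169). The PINC probe A_30_P01021820 rose by 0.11 (adjusted p = 0.0259, and 0.0992 with slide as a block), and no other probe of the 12 names was called between P17 and P28 in normoxia.

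The largest rises from P17 to P28 were in the intervals of chromosomes 2 and 3 that were lower after hyperoxia on P17. In chr2:156213798-156216885, A_30_P01026195 had -0.60, -0.08 and 0.27 on P17 and 0.45, 1.05 and 1.41 on P28, so that every P28 mouse was above every P17 mouse. It rose by 1.10 ± 0.18 (limma, adjusted p = 1.3e-05), and the other probes, A_30_P01022011 and A_30_P01019211, by 0.996 and 0.95. In chr3:146629425-146649125, A_30_P01028040 and A_30_P01033124 rose by 0.96 and 0.91. The P17 normoxia mice enter both this comparison and the one of hyperoxia and normoxia on P17.

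The largest falls were -1.46 (A_30_P01027845, chr8:37582157-37582802, forward), -1.36 (A_30_P01028735, chr17:39960567-39992817, reverse), -1.36 (A_30_P01025874, chr5:74487385-74497428, reverse), -1.26 (A_30_P01021628, chr11:60728207-60745369, reverse) and -1.25 (A_30_P01032050, chr15:77164450-77201325, forward). A_30_P01028735 ranged from -2.75 to 0.32 on P17 and from -3.12 to -0.81 on P28, with medians of -0.35 and -2.79, so that single mice of P17 lay as low as P28 mice. With slide as a block these 5 falls were between -0.90 and -1.10 and all remained called. With scan day as a block the 5 rises and 5 falls were also called. Within the last scan day 8 of these 10 were, with adjusted p of 0.0595 for A_30_P01028735 and 0.0807 for A_30_P01021628, and within the other scan days A_30_P01032050 alone was (-0.62, adjusted p = 0.00332), the rises being 0.49 to 0.76 and the falls -0.43 to -0.81. Over the same step 5 of 6 genes of dividing cells fell, with a list level from -3.55 to -1.25 on P17 and from -3.99 to -2.29 on P28, 4 of 11 rod genes fell and 1 rose, and 1 of 8 lens genes rose. Among the other lists, 1 cone gene rose and 1 fell, 3 amacrine and ganglion cell genes rose and 2 fell, 2 endothelial, 2 microglia and 2 pigment epithelium genes fell, 2 red blood cell genes rose and 1 fell, and no bipolar or Mueller glia gene was called. The part of these cells in the differences was not tested.

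Of the 39 measured long noncoding RNA genes listed by symbol, 4 fell from P17 to P28 in normoxia and none rose: Mir17hg, the host transcript of a microRNA cluster (-0.36), 1110038B12Rik (-0.30), Snhg6, a host gene of small nucleolar RNAs (-0.30), and Zeb2os (-0.13). From P12 to P17 Lncpint was called and rose by 0.47.

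The same steps were examined in hyperoxia mice. From P12 to P17, 87 interval probes rose and 29 fell (together 0.714% of the interval probes), against 1.94 and 1.49% of all probes. From P17 to P28, 1821 rose and 2784 fell (together 28.3%), against 21.2 and 19.4% of all probes. In this step all calls had one direction in 894 of the 1107 intervals or names with more than 1 called probe. For the latter step only 1 slide held mice of both days, with 1 and 2 arrays, so that most of the age difference was also a difference between slides. With slide as a block 1562 interval probes were called, and 203 within the last scan day. In the reference channel alone, which held the same reference RNA on every array, 87 interval probes were called higher and 508 lower for this step, and 2 and 10 for the step from P17 to P28 in normoxia.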

How the data were processed

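Both retinas of each mouse were pooled, labeled and hybridized on 1 two-color Agilent array per mouse against universal mouse reference RNA. The deposited scanner files were made by the authors with Agilent Feature Extraction 10.7.3.1 and hold, per the file headers, 62976 spots per array with unnormalized median intensity of spot and local background, processed intensity and flags. The deposited value table holds log2 ratios, which equaled log2 of processed Cy3 over Cy5 within 0.001 for 100% of the single-spot probes on each array, with column medians from -0.127 to 0.00993.

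Median intensities were background corrected (normexp, offset 50) and loess normalized within each array in limma 3.58.1 (R 4.3.3). Control spots had weight 0 in the loess curve, and 0.592 to 0.951% of the spots per array were left out as outliers, so that 159 interval probes lack a value on some array. Each interval probe is 1 spot, and the offset compresses differences of dim probes. Detection was taken from the well-above-background flag. Groups were compared with lmFit and eBayes over 55681 probes. Hyperoxia and normoxia were compared within the arrays of 1 day, and days and changes of effect in 1 model of 77 arrays. p-values were Benjamini-Hochberg adjusted over all probes, with calls at an adjusted p under 0.05, and measure the spread between mice. Detection shares were compared with two-sided permutation tests (100000 resamples). The number of arrays limits the precision.

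Members and gene lists were chosen with earlier results of these data known. Other probes were named through RefSeq accessions (28026 matched). Named in the text are called probes of each day of oxygen comparison (all, or the 10 largest in each direction), the 5 largest in each direction per normoxia day step, the 3 largest in each direction per change of effect, the 10 brightest, the 5 highest and lowest ratios, the 5 with the largest spread, called genes of the symbol list, and other probes of a named interval. All probes of the 12 names and the smaller P17 calls (A_30_P01020534, A_30_P01030773) were added after their values were seen. On data simulated for the P17 comparison (55681 probes, 200 changed), 89% of changes of 0.25 and 97% of those of 0.5 were recovered. The 200 were drawn from all interval probes, detected or not, and the noise was independent between probes, without slide effects. Recovery among detected probes was not measured apart. In the same simulation 9 unchanged probes were called. Recovery was not measured for real changes, so these shares do not tell how many of them were found. In chr2:156213798-156216885 the 3 probes had P17 differences from -0.57 to -0.47, and 1 was called. The 5 H19 probes had 0.18 to 0.47 and were not called, whereas 4 of 5 NEAT1 probes (0.36 to 0.68) were. Alternatives were no background subtraction, the value table, slide as a block, the retina channel alone, no dim probes, a trended robust variance, array weights, 1 model of all groups and another detection flag. Those on scan day were chosen after seeing the data.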

Additional observations from a re-analysis of the deposited data

Results flagged for a closer look

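The results below were picked out because the difference between hyperoxia and normoxia itself differed between days in a test of that difference (limma, adjusted over all probes). For P17 minus P12, 10 interval probes passed. The largest were A_30_P01024256 and A_30_P01022030, both in chr16:23992037-24001037 (forward), with changes of effect of 0.768 and 0.634 (adjusted p = 0.0152 and 0.00131), although neither was called on P12 or P17 alone, and A_30_P01021243 in chr17:48068261-48087905 with 0.682 (adjusted p = 0.00203).

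For P28 minus P17, 10 interval probes passed. The effect was lower on P28 for A_30_P01033039 (-0.839, adjusted p = 0.0357), A_30_P01022125 (-0.629, adjusted p = 0.0134) and A_30_P01021243 (-0.626, adjusted p = 0.0108). It was higher for A_30_P01031408 (0.436, adjusted p = 0.0427), A_30_P01030732 in chr9:88437245-88465751 (0.21, adjusted p = 0.0285) and A_30_P01030715 (0.106, adjusted p = 0.0294), the last of which was detected on no array. With slide as a block A_30_P01021243 (-0.46, adjusted p = 0.0501) and A_30_P01030732 (0.16, adjusted p = 0.0953) were no longer called, and with scan day as a block A_30_P01021243 (-0.43, adjusted p = 0.0543) and A_30_P01022125 (-0.53, adjusted p = 0.0522). Of these 6, 4 each lost the call with the value table and with the retina channel alone. Within the last scan day A_30_P01033039 alone was called (-1.19, adjusted p = 0.0312), and within the other scan days none was (limma, lowest adjusted p = 0.0504, for A_30_P01021243). Most P28 arrays were scanned on the last scan day and most P17 arrays on other days, and the part of scan day in these changes was not tested beyond the values given for it in the next section.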

How the results depend on the processing

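The share of the 16251 interval probes that was called moved with the processing, and the cause was not tested. On P12 the 0 became 0.00615% with the value table. On P17 the 0.178% (29 probes) became 0.314% without background subtraction (26 of the 29 shared), 0.462% with the value table (22 shared), 0.437% with the retina channel alone (18 shared), 0.585% with array weights (27 shared), 0.283% with scan day as a block (21 shared), 0 on the last scan day and 0.117% on the other days (8 shared). With slide as a block it was 0.203% (19 shared), and in 1 model of all groups 0.215% (15 shared), with 28 higher and 7 lower. On P28 the 0.00615% (1 probe) became 0.0246% without background subtraction, 0.08% with slide as a block, 0.0554% with the retina channel alone and in 1 model, 0 without dim probes, 0.0861% with array weights, 0.123% with scan day as a block, 0.0431% on the last scan day and 3.38% on the other days, where 2 hyperoxia and 5 normoxia arrays were scanned on different days, so that day and group cannot be told apart. From P12 to P17 in normoxia the 0.252% became 0.431% without background subtraction, 0.615% with the value table, 0.806% with slide and 0.554% with scan day as a block, 0.843% with the retina channel alone, 0.812% with array weights and 0.135% on the last scan day. In hyperoxia the 0.714% became 2.13% with the value table, 1.64% with slide and 1.3% with scan day as a block, 2.79% with the retina channel alone, 2.36% with array weights, 0.178% on the last scan day and 1.53% on the other days. From P17 to P28 in normoxia the 6.37% became 13.5% with the value table, 24% with array weights and 0.905% on the other scan days, and the split of 495 rises and 541 falls became 447 and 749 without background subtraction and 422 and 733 with slide as a block. In hyperoxia the 28.3% became 9.61% with slide and 10.2% with scan day as a block, 1.25% on the last scan day and 0.486% on the other days. For the change of effect from P12 to P17 the 0.0615% became 0.0985% without background subtraction, 0.172% with the value table, 0.142% with slide and 0.129% with scan day as a block, 0.4% with the retina channel alone, 0.425% with array weights and 0.0185% on the last scan day. For that from P17 to P28 the 0.0615% became 0.0985% with slide as a block, 0.135% with the retina channel alone, 0.32% with array weights, 0.0123% on the last scan day and 0.289% on the other days. In the value table A_30_P01018844 had 0.033 and A_30_P01030773 -0.034 on P17, against their direction, and on the other scan days the change of effect from P17 to P28 was -0.055 for A_30_P01030732 and 0.074 for A_30_P01033039. With the positive-and-significant flag the detection difference of P17 was 1.22 points, and the difference between interval and other probes -0.921 on P12 and 3.75 from P17 to P28 (permutation test, adjusted p = 0.0158). Within slides the detection difference was 0.362 on P17 and 7.57 from P17 to P28, and that between interval and other probes -0.0273 on P12 and -0.345 on P28. Within scan days it was 2.05 on P17 and -0.12 on P28, and between interval and other probes -0.0242 on P12 and -0.353 on P28. Interval probes that were not above background have no measured level. No paired analysis was possible because every mouse has a number of its own and no litter is given.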
